A study of Gasterosteus aculeatus with 79 samples.

Results

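Some genes are expressed at levels that depend on the hour, through the circadian clock or through light, feeding and activity, and a brain sampled at several hours of the day carries that variation. The 100 genes described here were those whose expression fell most from 9am to 5pm in the brains of control male sticklebacks (Gasterosteus aculeatus). They were ranked by the control values alone, after a filter on the mean over all 79 libraries, caring males included: among 14247 genes with a mean of at least 5 CPM (read counts scaled to the size of the library), 1055 had control means of log2(CPM + 1) in the order 9am over 1pm over 5pm in both brain regions, and the 100 with the largest smaller-of-the-regions difference between 9am and 5pm were kept, out of 22456 genes counted. The control values are therefore a description of the choice, and the question put to the data was whether the same genes fell over the same hours in caring males.

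RNA-seq was made from the diencephalon and the telencephalon of 40 males, in 79 libraries. The caring males were sampled at 9am, at 1pm and at 5pm on the fifth day after fertilization, while the eggs hatched (hatched males), at 9am on day 4 with eggs in the nest, and at 9am with a nest and no eggs yet. The control males were reproductively mature fish without a nest, sampled at 9am, 1pm and 5pm. Each of these 8 groups held 5 males, and in the diencephalon the control group of 1pm held 4. In hatched males the hour cannot be told apart from the progress of hatching, which started at 9am and was complete by 5pm. Both regions came from the same fish, so that a pattern seen in both is not seen in independent animals. Across 39 males with both libraries, the deviations of the 100 genes from their group means correlated between a male's regions with a median r of 0.56. Over all genes of at least 5 CPM the median r was 0.50.

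Libraries held 15839679 to 37371744 counts in genes, with a median of 20788830. No pair of libraries within a group agreed to within counting noise. The share of aligned reads outside genes was 49.4% ± 1.46 in the diencephalon of hatched males at 5pm and 48.98% ± 1.11 at 9am (SD, n = 5 each; difference 0.378 percentage points, two-sided exact permutation test p = 0.683). In the telencephalon it was 46.7% ± 1.58 at 5pm and 46.9% ± 1.52 at 9am (SD, n = 5 each; exact permutation p = 0.857), and both comparisons had an adjusted p of 0.857. In control males this share moved with the hour that chose the genes: in the diencephalon it was 44.5% ± 0.994 at 5pm and 47.7% ± 2.09 at 9am, and its part in the choice was not tested. Lists of telencephalic and radial glial markers had no gene with a matched name, and the diencephalic list had pomca alone, so the dissected regions were not checked with them.

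Names were available for 13 of the 100 genes, and 3 of these encode pituitary hormones: cga (chromosome XV, 6926679 to 6928403), the alpha subunit shared by the gonadotropins and thyrotropin, gh1 (chromosome XI, 16069731 to 16072008), growth hormone, and pomca (chromosome X, 14658688 to 14660689), the precursor of adrenocorticotropic hormone and melanocyte-stimulating hormone. The other named genes were DNASE2B, a nuclease, arhgap25, a GTPase-activating protein, NUGGC (3 of 3), a nuclear GTPase, plaua, a urokinase-type plasminogen activator, cenpv, a centromere protein, gpsm2l, related to modulators of G-protein signalling, CCDC81, a coiled-coil protein, gngt1, a transducin gamma subunit known from photoreceptors, psma6l, a proteasome subunit, and TRIM35 (18 of 28), a tripartite motif protein. The others are given by their Ensembl identifiers. Names came only from the study's lists of genes it called differentially expressed. These lists cover contrasts that include these control males, and also those of a territorial challenge experiment. The named genes and the matched markers are therefore not an even sample of all genes. No gene of the clock list, of 67 symbols, had a matched name, so the core clock could not be set beside these genes. Of the 100 genes, 62 had a mean under 20 CPM, with a median over the 100 of 14.3 CPM and a range of 5.11 to 294 CPM. The level of all genes of at least 5 CPM is not given beside this.

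Few of the 100 genes passed the test for a fall in hatched males. In their diencephalon, 2 of the 100 genes were lower at 5pm than at 9am (edgeR quasi-likelihood test, Benjamini-Hochberg adjusted p under 0.01), and these were the only genes lower among the 18609 tested (0.0107%). None of the 100 was called higher, against 3 higher and 3 lower at an unadjusted p under 0.05, beside 6.12% of all genes, and DESeq2 also called none higher. In the telencephalon none of the 100 was called in either direction, as for all 18397 genes tested (0%), against 4 lower and 3 higher at an unadjusted p under 0.05, beside 3.61% of all genes, and DESeq2 called none of the 100 either. All 100 genes passed the filter on low counts in both regions. The filter counted libraries of every group, control males included. ENSGACG00000001612 and ENSGACG00000006984 averaged under its level of 0.5 CPM in the telencephalon of hatched males. Little can be read from their tests there.

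The gene with the clearest fall was ENSGACG00000003287, ranked 29 by the control values. In the diencephalon of hatched males it had 12.8, 11.8, 18.1, 9.27 and 15.1 CPM at 5pm, against 39.2, 24.8, 36.3, 30.8 and 34.7 CPM at 9am. Every male of 5pm was below every male of 9am, and the 1pm males, at 18.3 to 27.4 CPM, were all above those of 5pm, with 1 of them above the lowest male of 9am. The log2 fold change was -1.32 (SE 0.17, edgeR quasi-likelihood adjusted p = 0.000136), and the mean at 5pm was 0.404 of the mean at 9am. In the telencephalon it had 21.9, 19.5, 22.7, 14.7 and 19.3 CPM at 5pm, against 40.4, 27.0, 33.0, 28.6 and 34.2 CPM at 9am. The groups did not overlap there either, but the log2 fold change of -0.75 (SE 0.16) did not pass (edgeR adjusted p = 0.573; DESeq2 adjusted p = 0.0136).

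ENSGACG00000019308, ranked 48, behaved likewise at a higher level. In the diencephalon of hatched males it had 40.1, 40.03, 47.1, 29.5 and 39.7 CPM at 5pm, against 82.9, 55.7, 76.6, 81.6 and 73.2 CPM at 9am, with no overlap (log2 fold change -0.92, SE 0.16, edgeR quasi-likelihood adjusted p = 0.00963). The 1pm males had 35.9 to 63.4 CPM and overlapped both. In the telencephalon it had 43.2, 55.3, 64.3, 38.9 and 44.3 CPM at 5pm and 59.6, 51.9, 73.7, 81.2 and 67.3 CPM at 9am. There the 5pm male was the lower in 22 of the 25 possible pairs, and the change of -0.45 (SE 0.14) did not pass (edgeR adjusted p = 0.9999). This gene's call in the diencephalon was the weaker: it was lost in 8 of the 10 fits that left out a hatched male of 5pm or 9am, and with scaling by library total alone, while its log2 fold change stayed between -1.004 and -0.83 over the alternatives run. With a spread estimated from the hatched groups only, neither gene passed (edgeR adjusted p = 0.0145 and 0.161).

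**Figure D1:**
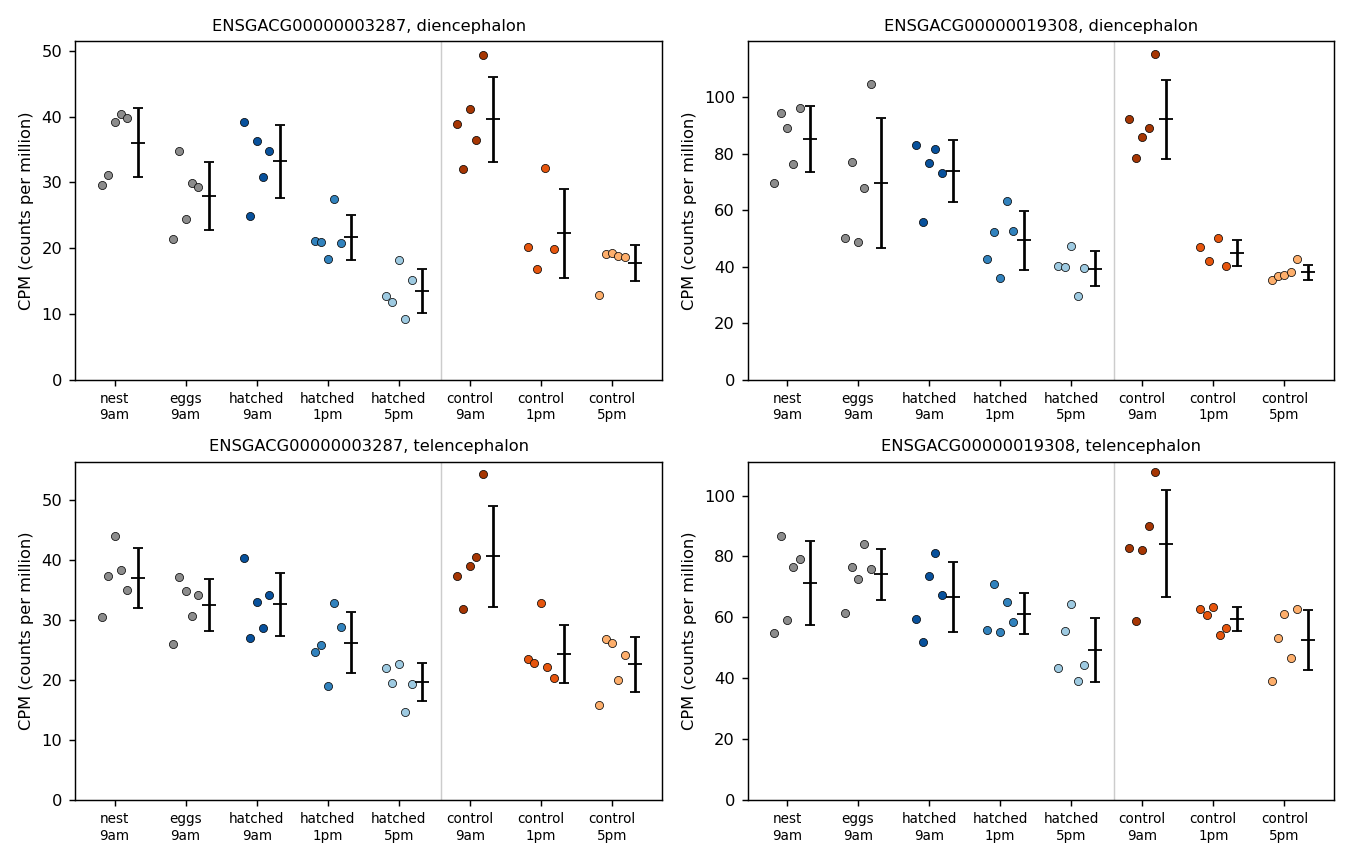
CPM of ENSGACG00000003287 and ENSGACG00000019308 (left and right) in the diencephalon (upper panels) and telencephalon (lower panels), with 1 point per male and the mean ± SD of each group beside it (5 males, 4 in the diencephalon of control males at 1pm). In the diencephalon the hatched males of 5pm all lie below those of 9am, and the control values on the right chose the genes.

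The 2 genes were also low at 5pm against caring males sampled at 9am at other stages. This comparison used the same hatched males of 5pm and the same fit, so it is not independent of the first. In the diencephalon, hatched males at 5pm were lower than the mean of nest and egg males at 9am by a log2 fold change of -1.27 for ENSGACG00000003287 (SE 0.16, edgeR quasi-likelihood adjusted p = 3.43e-05) and of -0.99 for ENSGACG00000019308 (SE 0.14, adjusted p = 0.000311). These were again the only genes called lower of all tested (0.0107%). Egg males at 9am had 21.4 to 34.7 CPM of ENSGACG00000003287 and nest males had 29.6 to 40.4 CPM, all above the highest hatched male of 5pm, 18.1 CPM. In the telencephalon no gene was called in this comparison (0% of those tested, with 1186 at an unadjusted p under 0.05), and ENSGACG00000003287 changed by -0.84 (SE 0.14, edgeR adjusted p = 0.0142). Hatched males at 9am, set against nest and egg males at 9am, had log2 fold changes of 0.05 (SE 0.15) and -0.07 (SE 0.13) for the 2 genes in the diencephalon (edgeR adjusted p = 0.956 and 0.928).

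Control males, whose values chose the genes, had 12.9 to 19.2 CPM of ENSGACG00000003287 at 5pm and 32.1 to 49.4 CPM at 9am in the diencephalon. The ratio of the 5pm mean to the 9am mean was 0.404 in hatched males and 0.448 in control males for this gene, and 0.531 and 0.411 for ENSGACG00000019308. In the telencephalon the ratios were 0.601 and 0.556 for the first gene and 0.738 and 0.624 for the second, in hatched and control males in that order. For both genes the hatched change in the diencephalon was the larger, by a log2 difference of -0.55 (SE 0.23) and -0.45 (SE 0.21), but neither passed (edgeR quasi-likelihood adjusted p = 0.9999 for both). With each male as a block the differences were -0.56 (SE 0.12) and -0.45 (SE 0.12), with unadjusted p of 0.000199 and 0.00133 and, over all genes, an adjusted p of 1.0 for both. No gene of any kind was called in this test of the regions, and 3 of the 100 had an unadjusted p under 0.05 without the block (1.62% of all genes) and 6 with it (3.7%). Over the 25 caring males the other gene of the 14247 with the highest smaller-of-the-regions correlation with ENSGACG00000003287 was ENSGACG00000019308, with r of 0.90 in the diencephalon and 0.69 in the telencephalon. In the telencephalon alone it was not the most alike, since ENSGACG00000007021 had r of 0.70 there and 0.63 in the diencephalon. This likeness was looked up after the values of both were seen, and both share the change with the hour.

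In the lane numbers that the labels give, hatched males of 5pm and 9am shared lane 8 and, in the telencephalon, lane 7, with no flow cell given. Male 65 of 5pm carried the letter M in place of a number in both regions, as did all 29 control libraries, and no other caring male did. On lane 8 the diencephalon had 18.1 and 9.27 CPM of ENSGACG00000003287 at 5pm, against 39.2 and 24.8 CPM at 9am. For ENSGACG00000019308 the same libraries had 47.1 and 29.5 CPM at 5pm and 82.9 and 55.7 CPM at 9am. Both genes were lower at 5pm under this lane number, with too few libraries for a test. The paper gives more lanes than there are numbers in the labels, so libraries that share a number need not share a lane. In the telencephalon on lane 8, 1 male of 5pm had 14.7 CPM of ENSGACG00000003287 and 38.9 CPM of ENSGACG00000019308, against 27.0 and 51.9 CPM in 1 male of 9am. In the telencephalon on lane 7, ENSGACG00000003287 had 19.5 and 22.7 CPM at 5pm and 40.4 CPM at 9am, while ENSGACG00000019308 had 55.3 and 64.3 CPM at 5pm and 59.6 CPM at 9am, so that the second gene overlapped there.

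None of the other 98 genes was called. The median log2 fold change of the 100 genes for 5pm against 9am in hatched males was 0.09 in the diencephalon, with 34 below 0, beside -0.00 and 50.8% below 0 over all genes tested. In the telencephalon the median was 0.04, with 46 below 0, beside 0.00 and 49.2% below 0. The control differences that chose the genes, taken as 9am minus 5pm, had medians of 0.68 and 0.83. The full order 9am over 1pm over 5pm held in hatched males of both regions for 4 of the 100, against 3.46% of all genes of at least 5 CPM. Besides the 2 called genes these were ENSGACG00000001612 and ENSGACG00000017912. ENSGACG00000001612 averaged 0.0795 to 0.171 CPM in the telencephalon of hatched males, so that nothing can be read from its order there. Within single regions the order held for 7 genes in the diencephalon, beside 16.3% of all genes of at least 5 CPM, and for 11 in the telencephalon, beside 9.24%. The opposite order, rising to 5pm, held for 29 genes in the diencephalon, beside 16.95% of all genes of at least 5 CPM, and for 19 in the telencephalon, beside 11.97%. The mean of log2(CPM + 1) was lower at 5pm by at least 0.44, a little under the smallest control difference, for 9 and 7 of the 100 genes in the 2 regions (1.59% and 0.737% of all genes of at least 5 CPM), and higher by as much for 17 and 19 (1.41% and 2.35%).

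**Figure D2:**
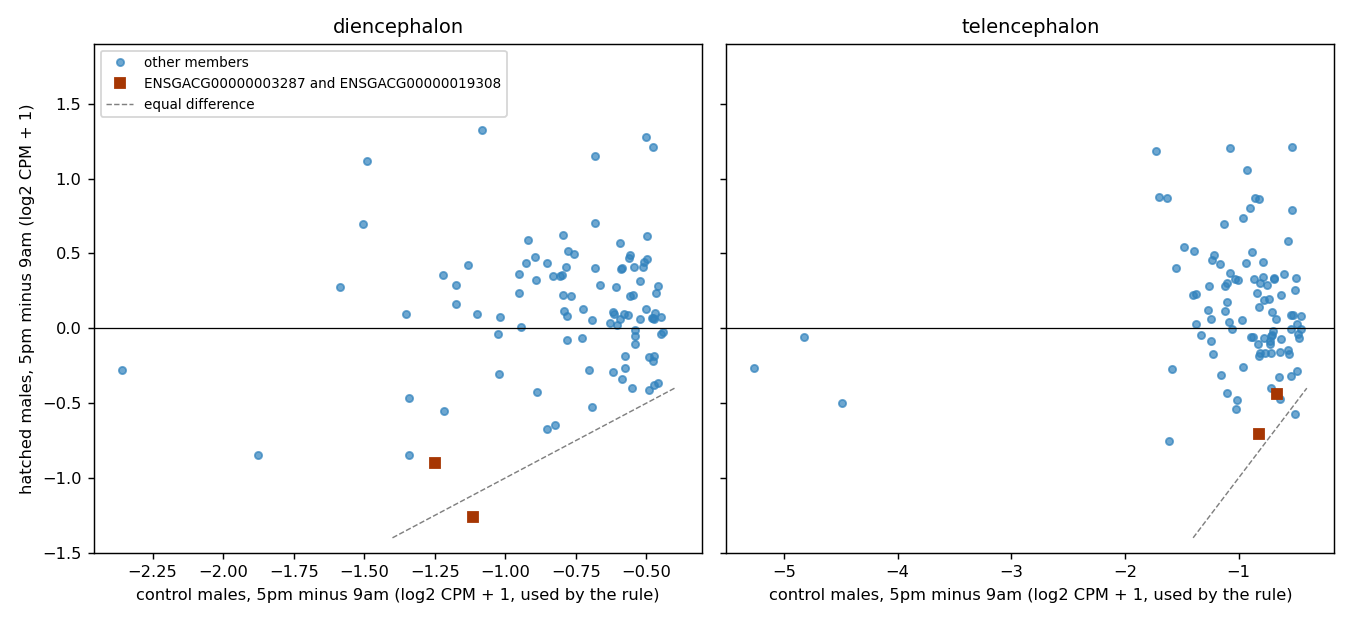
Each point is 1 of the 100 genes: the difference of mean log2(CPM + 1), 5pm minus 9am, in control males (horizontal axis, the values that chose the genes) and in hatched males (vertical axis), in the diencephalon (left) and telencephalon (right). The control values are all -0.44 or lower by the choice, while the hatched values scatter on both sides of 0, and the squares mark ENSGACG00000003287 and ENSGACG00000019308.

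The separation of single males was counted as well. In the diencephalon 2 genes had all hatched 5pm males below all 9am males (0.699% of all genes tested) and 1, ENSGACG00000018002, had them all above (0.736%). In the telencephalon 1 gene, ENSGACG00000003287, had all 5pm males below (0.136%) and none had them above (0.255%). In control males, where the hours chose the genes, 12 of the 100 in the diencephalon (background 1.47%) and 17 in the telencephalon (background 1.18%) had all 5pm males below all 9am males. Most of the 100 thus overlapped between hours even in the males that chose them.

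The hours on either side of 1pm were compared likewise. The median log2 fold change of the 100 genes was 0.22 in the diencephalon and 0.35 in the telencephalon for 1pm against 9am, and -0.16 and -0.27 for 5pm against 1pm. None of the 100 was called in any of these 4 comparisons (edgeR quasi-likelihood test), with 5, 8, 2 and 7 of them at an unadjusted p under 0.05, beside 5.38%, 14.8%, 7.14% and 10.5% of all genes. The 1pm mean was the highest of the 3 for 43 genes in the diencephalon, beside 32.2% of all genes of at least 5 CPM, and for 54 in the telencephalon, beside 5699 of the 14247 genes.

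Among the 15 genes ranked highest by the control values, none was called in hatched males. ENSGACG00000020944, ranked 2, had the lowest log2 fold change of the 100 in the diencephalon, -1.51 (SE 0.52, edgeR adjusted p = 0.748), with 2 high males at 9am. It had 8.45, 10.8, 7.10, 7.22 and 12.7 CPM in the diencephalon at 5pm, against 7.47, 49.0, 7.40, 8.17 and 57.9 CPM at 9am. The 2 high males, numbers 16 and 64, were high in the telencephalon too, at 42.9 and 51.3 CPM against 3.08 to 8.07 CPM in the other 9am males. Among control males, numbers 7 and 74 at 9am (61.8 and 67.6 CPM in the diencephalon) and number 12 at 1pm (35.1 CPM) were high, and no male of 5pm was, at 4.59 to 6.31 CPM. The nest and egg males at 9am had at most 11.5 CPM in either region.

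Of the rest of these 15, the values of the 5pm and 9am hatched males overlapped in both regions for all except ENSGACG00000018002, ranked 4. That gene had 7.71, 6.88, 14.0, 7.27 and 5.70 CPM in the diencephalon at 5pm, against 5.35, 4.93, 4.95, 5.25 and 2.61 CPM at 9am, the opposite of the control direction (log2 fold change 0.84, SE 0.47, edgeR adjusted p = 0.869). In the telencephalon its values were 4.97 to 10.7 CPM at 5pm and 1.31 to 6.55 CPM at 9am. ENSGACG00000007727, ranked 3, had 5.11 to 28.4 CPM at 5pm and 6.93 to 9.74 CPM at 9am in the diencephalon (0.54, SE 0.58). ENSGACG00000020069 and ENSGACG00000017454, ranked 5 and 15, had log2 fold changes of 0.92 (SE 0.76) and 1.06 (SE 0.73) there, and ENSGACG00000010748, ranked 6, of 0.37 (SE 0.46). ENSGACG00000014599 and ENSGACG00000018140, ranked 7 and 10, had -0.60 (SE 0.55) and -0.75 (SE 0.62). ENSGACG00000022478, ENSGACG00000000270 and ENSGACG00000019809, ranked 9, 13 and 14, lay between 0.10 and 0.42.

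ENSGACG00000008819 and ENSGACG00000008828, ranked 12 and 11, are neighbours on chromosome XX, at positions 10254332 to 10256022 and 10257431 to 10258487 as the study's annotation gives them. They had log2 fold changes of 0.13 (SE 0.61) and 0.11 (SE 0.59) in the diencephalon and followed each other over the 25 caring males (r 0.98 there and 0.96 in the telencephalon). ENSGACG00000000330 and ENSGACG00000000336, neighbours on scaffold_131 at 52153 to 54217 and 56853 to 59742, correlated at 0.72 and 0.64. Neighbouring copies can share reads, and this was not tested.

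Among the genes with positive log2 fold changes in the diencephalon of hatched males, ENSGACG00000019509, ranked 46, had the lowest adjusted p. In the diencephalon it had 304, 469, 302, 596 and 388 CPM at 5pm, against 164, 305, 142, 232 and 110 CPM at 9am, and at 1pm it had 143 to 578 CPM. The groups overlapped through 1 male of 9am, at 305 CPM, which lay above 2 of the 5pm males. The log2 fold changes of 1.1 (SE 0.40) in the diencephalon and 1.1 (SE 0.42) in the telencephalon did not pass (edgeR adjusted p = 0.755 and 0.9999). In control males the same gene had 98.6 to 220 CPM at 5pm and 143 to 385 CPM at 9am. ENSGACG00000017802 changed by 0.56 (SE 0.24) in the diencephalon and 0.97 (SE 0.31) in the telencephalon, and ENSGACG00000006554, on chromosome XI, by 0.34 (SE 0.17) and 0.31 (SE 0.26), none of which passed. Other genes with negative log2 fold changes were ENSGACG00000018498, at -0.30 (SE 0.18) and -0.34 (SE 0.18), and ENSGACG00000017912, at -0.48 (SE 0.32) and -0.66 (SE 0.38). ENSGACG00000003091 was another, at -0.43 (SE 0.33) and -0.52 (SE 0.26). None of the 3 passed (edgeR adjusted p between 0.899 and 0.9999).

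The genes just inside the limit of the choice, ENSGACG00000017763, ENSGACG00000016698 and ENSGACG00000018451, had smaller-of-the-regions control differences of 0.45, 0.45 and 0.44. The next below it, ENSGACG00000000630, ENSGACG00000004815 and ENSGACG00000010750, had 0.44, 0.44 and 0.43.

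The control values that chose the genes are described here male by male, without a test. The median over the 100 genes of a library's deviation from the mean of its region was -0.72 to 0.19 in control males at 5pm and 0.28 to 0.63 at 9am in the diencephalon, and -0.81 to -0.22 at 5pm and 0.03 to 0.97 at 9am in the telencephalon. Male 39 was the highest of the 9am control males for 39 of the 100 genes in the diencephalon and 57 in the telencephalon. Males 90 and 66 were the lowest at 5pm for 39 and 34 genes in the diencephalon and for 38 and 34 in the telencephalon. Such counts were not taken over all genes, so there is no background to set them against. When the same rule was applied without one control male at a time, an alternative added after the data were seen, 44 to 85 of the 100 genes were chosen again. The fewest were kept without male 72 of 1pm. Next came 56 without male 74 of 9am, 56 without male 91 of 1pm and 58 without male 39. ENSGACG00000003287 and ENSGACG00000019308 were both chosen again in 13 of these 15 repeats, and 1 of them was lost without male 91 and without male 66. The repeats use the values that chose the genes, so they describe the choice and lend these genes no support. cga, ranked 1 by the control values, had no rank without male 12, 91, 90 or 97. It was ranked 1 or 2 in the other repeats.

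The hatched males of the same hours had medians of -0.11 to 0.38 at 5pm and -0.37 to 0.23 at 9am in the diencephalon, and -0.33 to 0.35 at 5pm and -0.56 to 0.28 at 9am in the telencephalon, so that the hours overlapped. The 15 caring males sampled at 9am stood below the 9am control males for 91 of the 100 genes in the diencephalon and 96 in the telencephalon (median differences -0.58 and -0.60), beside 52.9% and 52.6% of all genes of at least 5 CPM. The control values of 9am are part of the choice, so this difference is not tested. All control libraries carried the letter M in place of a lane number and all caring libraries of 9am carried a number, so that this tag and the condition cannot be told apart here.

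**Figure D3:**
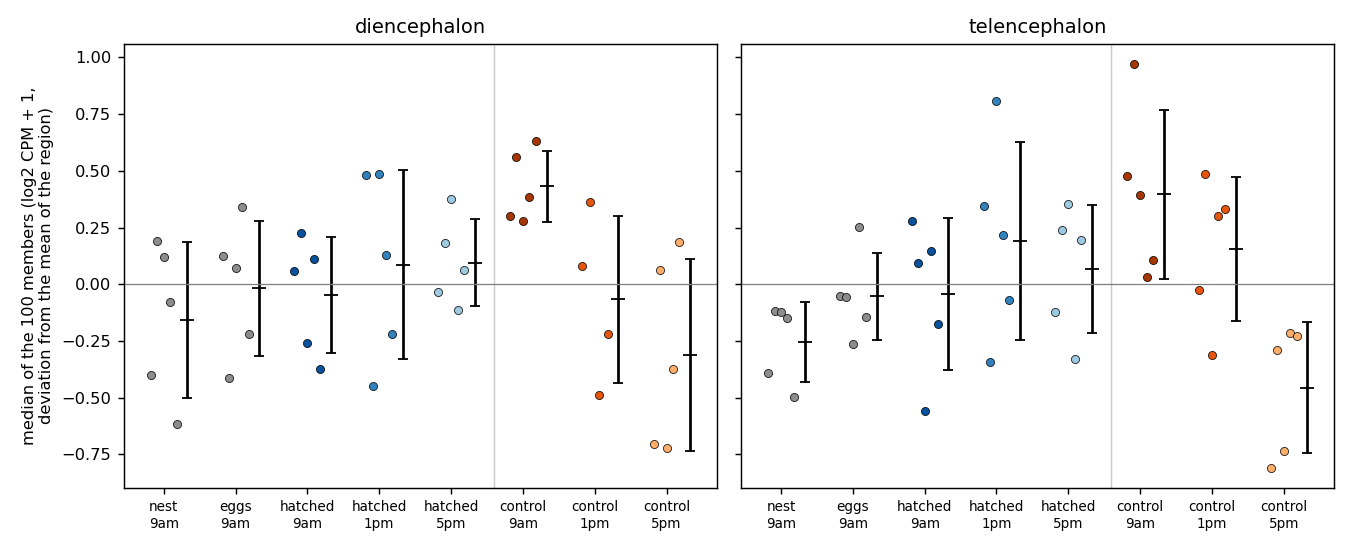
Median over the 100 genes of each library's deviation from the mean of its region, in log2(CPM + 1), in the diencephalon (left) and telencephalon (right), with 1 point per male and the mean ± SD of each group. The control groups on the right step down by the choice, with 0.19 or less at 5pm and 0.28 or more at 9am in the diencephalon, while the hatched groups of 5pm and 9am overlap.

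The spread of the 100 genes between males of a group is given as a description, with no test. The median SD between caring males of a group was 0.64 on the log2 scale in the diencephalon and 0.61 in the telencephalon, beside 0.20 and 0.20 for all genes of at least 5 CPM, and 98 of the 100 lay above that in each region. ENSGACG00000003287 and ENSGACG00000019308 had SDs of 0.26 and 0.30 in the diencephalon and 0.23 and 0.24 in the telencephalon. The variation was shared between a male's regions: over 25 caring males, the median gene of the 100 correlated between the regions at 0.84, beside 0.38 for all genes of at least 5 CPM. The 100 genes were chosen for large differences in both regions of the same control males, which can favour genes that vary in this way. The background genes were not chosen so, and were not matched for level.

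Much of this variation was shared. Grouped by their correlation over the 25 caring males in the diencephalon (average linkage, distance 0.6), 43 of the 100 genes formed one set, with a median pairwise r of 0.74 there and 0.72 in the telencephalon of the same males. All 43 were put together on these values, so the correlation in the diencephalon is a description. The set held DNASE2B, arhgap25, plaua, cenpv, gpsm2l, psma6l and TRIM35 (18 of 28), and 6 of the 15 genes ranked highest, ENSGACG00000018002, ENSGACG00000020069, ENSGACG00000010748, ENSGACG00000008828, ENSGACG00000008819 and ENSGACG00000000270. ENSGACG00000003287 and ENSGACG00000019308 were not in it.

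This set moved with markers of microglia and macrophages. These cells are the phagocytes of the brain, and of the 10 marker symbols listed for them 3 had a matched name: mpeg1, a pore-forming protein of macrophages, coro1a, an actin-binding coronin of leukocytes, and lcp1, the leukocyte plastin. None of the 3 was among the 100 genes. Over the 25 caring males, log2 of their summed CPM correlated with the median of the 43 genes at r 0.98 (Spearman's rank correlation 0.96) in the diencephalon and r 0.96 (rank correlation 0.94) in the telencephalon. Without the 2 males farthest from the median marker level, r was 0.98 and 0.95 (n = 23), and with the group means removed it was 0.98 and 0.96. In control males, whose values chose the genes, r was 0.95 in the diencephalon (n = 14) and 0.95 in the telencephalon (n = 15). These correlations were looked up after the values were seen, are given as a description without a test, and join quantities from the same libraries. coro1a and lcp1 are known from leukocytes at large, and no erythrocyte marker was matched. Microglia and leukocytes of the blood could therefore not be told apart.

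Gene by gene, 30 of the 100 correlated with the marker sum at r of 0.8 or more over the caring males in the diencephalon and 31 in the telencephalon, beside 2.39% and 2.50% of the 14247 genes. All of these were in the set of 43. ENSGACG00000003287 and ENSGACG00000019308 had r of -0.36 and -0.44 in the diencephalon and -0.31 and -0.24 in the telencephalon.

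**Figure D4:**
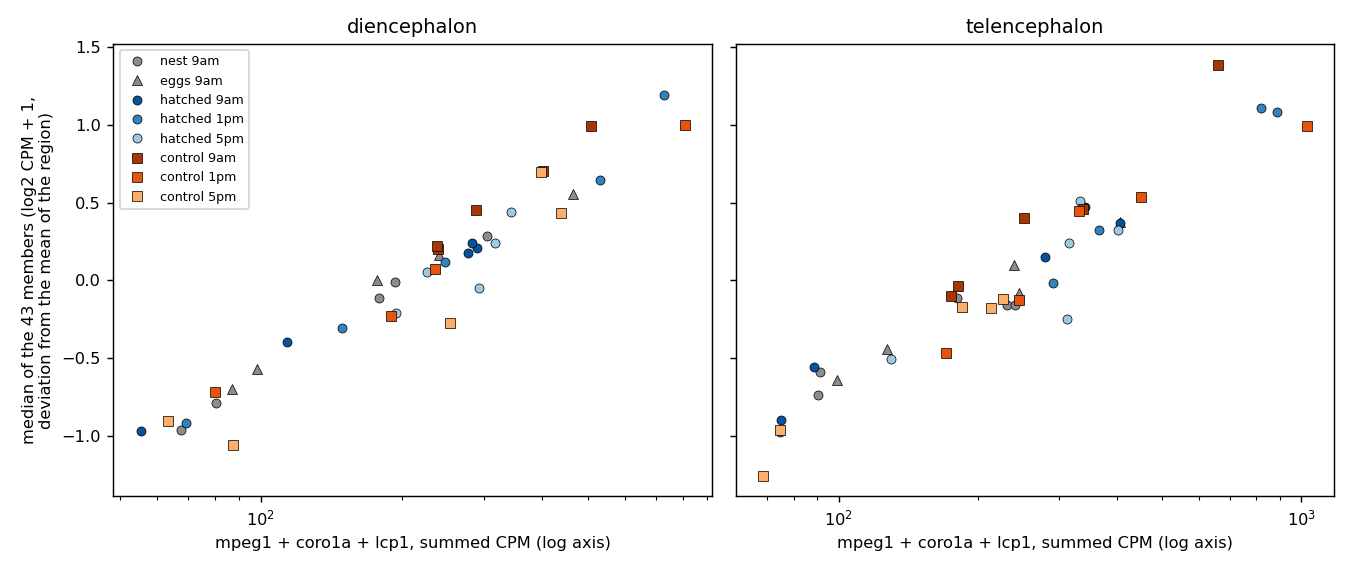
Median of the 43 genes that vary together (vertical axis, log2(CPM + 1) as deviation from the mean of the region) against the summed CPM of mpeg1, coro1a and lcp1 (horizontal log axis), with 1 point per male, in the diencephalon (left) and telencephalon (right). Caring males (circles and triangles) and control males (squares) lie on one rising band, with r 0.98 over the caring males in the diencephalon and 0.96 in the telencephalon.

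The ranges of the marker sum overlapped between 5pm and 9am in control and in hatched males, while the means differed. In control males the mean was lower at 5pm than at 9am: 248 against 335 CPM in the diencephalon and 154 against 322 CPM in the telencephalon. In hatched males it was higher at 5pm: 275 against 204 CPM and 298 against 238 CPM. The differences of the sum were not tested. In control males it ranged over 63.4 to 439 CPM at 5pm and 238 to 508 CPM at 9am in the diencephalon, and over 68.7 to 227 CPM at 5pm and 175 to 662 CPM at 9am in the telencephalon. In hatched males it ranged over 195 to 343 CPM at 5pm and 55.4 to 290 CPM at 9am in the diencephalon, and over 130 to 402 CPM at 5pm and 75.0 to 406 CPM at 9am in the telencephalon. At 1pm single males were the highest of their groups, up to 728 CPM in hatched and 806 CPM in control males in the diencephalon, and up to 885 and 1030 CPM in the telencephalon. None of the 3 markers was called between 5pm and 9am in hatched males. In the diencephalon the log2 fold change was 0.55 (SE 0.84) for mpeg1, 0.44 (SE 0.56) for coro1a and 0.38 (SE 0.55) for lcp1 (edgeR quasi-likelihood adjusted p = 0.977 or more). Their part in the control pattern was not tested. In whole tissue, fewer cells of a type and less RNA per cell cannot be told apart.

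The pituitary genes varied over a far wider range within each hour. In the diencephalon of hatched males pomca had 1.67, 38.6, 47.2, 409 and 502 CPM at 5pm, against 2.08, 767, 6.27, 621 and 1020 CPM at 9am. High and low males occurred at each hour, and the log2 fold change of -1.29 (SE 1.72) did not pass (edgeR adjusted p = 0.978). In the telencephalon of hatched males pomca was at 0.26 to 8.98 CPM at 5pm and 0.0466 to 23.1 CPM at 9am.

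In control males a few telencephalic libraries stood far above the rest. There pomca had 0.459, 0.206, 0.726, 2.52 and 0.235 CPM at 5pm, against 3.58, 4752, 624, 7.09 and 1.2 CPM at 9am, the high values being those of males 39 and 41, and 1 male of 1pm, number 96, had 2084 CPM. In the diencephalon of the control males the mean of pomca was higher at 5pm, 470 CPM, than at 9am, 165 CPM, although the mean of its log2 values, on which the choice was made, fell. cga, ranked 1, had 1.42, 0.206, 0.0518, 1.62 and 0 CPM in the telencephalon of control males at 5pm, against 3.09, 5655, 2518, 3.32 and 1.68 CPM at 9am. In their diencephalon cga had 1230, 590, 0.170, 5.97 and 0.161 CPM at 5pm, against 906, 8.59, 37.4, 301 and 242 CPM at 9am. The highest of these values was at 5pm, as it was for pomca. In hatched males it had 0.975 to 549 CPM at 5pm and 5.81 to 1002 CPM at 9am in the diencephalon (log2 fold change -0.65, SE 1.71, edgeR adjusted p = 0.988). gh1 had 0.0464 to 353 CPM at 5pm and 4.61 to 820 CPM at 9am there (-1.22, SE 1.76, adjusted p = 0.978). In the diencephalon of control males gh1 had 0 to 523 CPM at 5pm and 1.76 to 262 CPM at 9am.

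**Figure D5:**
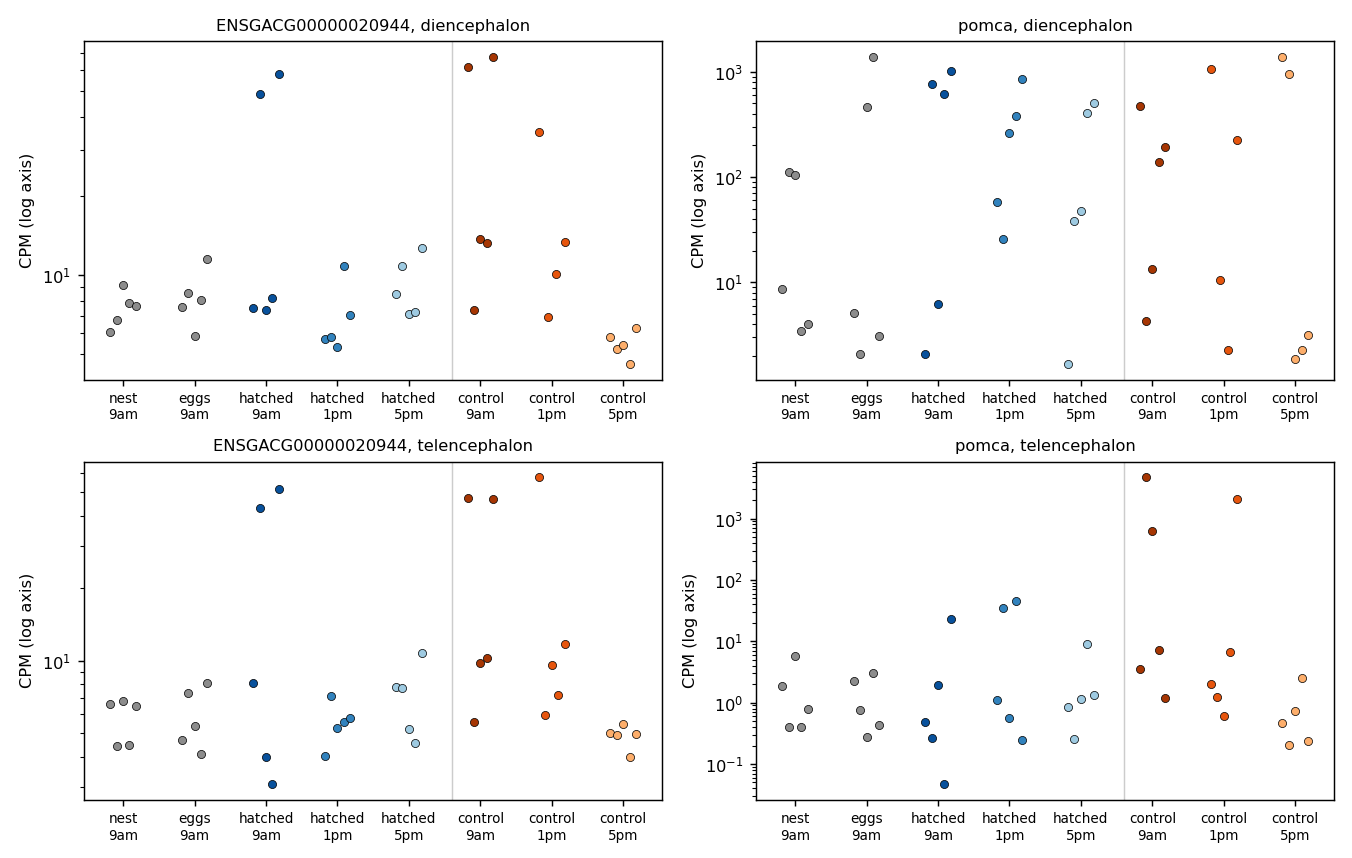
CPM on a log axis of ENSGACG00000020944 (left) and pomca (right) in the diencephalon (upper panels) and telencephalon (lower panels), with 1 point per male. Single males stand out: ENSGACG00000020944 is at 42.9 CPM or more in 2 hatched males of 9am in both regions, and pomca is at 624 CPM or more in the telencephalon of only 3 control males.

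The 3 hormone genes are markers of the pituitary, which hangs below the diencephalon. Of the 11 pituitary symbols listed, 6 were matched: prl, gh1, cga, pomca, lhb and smtla. Their summed level ran over 4.41 to 2170 CPM at 5pm and 18.6 to 3370 CPM at 9am in the diencephalon of hatched males. In the telencephalon it reached 18500 CPM in 1 control male of 9am, 5650 CPM in another and 9030 CPM in 1 control male of 1pm. It was at most 26.4 CPM in control males of 5pm and at most 408 CPM in hatched males of 9am. In the caring males' diencephalon NUGGC (3 of 3), ENSGACG00000007454, ENSGACG00000007449, ENSGACG00000007447 and ENSGACG00000013216 grouped with the 3 hormone genes. The part of pituitary tissue in these values was not tested.

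The remaining named genes outside the large set were CCDC81 and gngt1. CCDC81 averaged 19.7 CPM at 5pm and 21.9 CPM at 9am in the diencephalon of hatched males, and 31.7 and 30.1 CPM in the telencephalon. gngt1 was low in most libraries, at 0.0495 to 4.54 CPM at 5pm and 0.25 to 2.97 CPM at 9am in the diencephalon of hatched males, and single males elsewhere were high, with 59.7 CPM in an egg male's diencephalon and 71.0 CPM in a control male's telencephalon. Of 15 photoreceptor and pineal symbols 9 were matched, and none was called in hatched males between 5pm and 9am (edgeR quasi-likelihood test).

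Of the other lists, 3 of 34 immediate early symbols were matched: egr2a and npas4a, activity-induced transcription factors, and atf3, a stress-induced one. Their log2 fold changes were -0.58 (SE 0.30), -0.61 (SE 0.28) and -0.32 (SE 0.58) in the diencephalon of hatched males at 5pm against 9am, and none passed (edgeR adjusted p = 0.806 or more). In the telencephalon the changes were -0.33 (SE 0.21), -0.19 (SE 0.26) and 0.76 (SE 0.59), so that atf3 was higher, and none passed (edgeR adjusted p = 0.9999 for each). Of 18 glucocorticoid-responsive symbols cebpd alone was matched, at -0.26 (SE 0.32) in the diencephalon and -0.12 (SE 0.33) in the telencephalon. No heat shock symbol of 47 was matched, and neither was any erythrocyte marker. Among 4 muscle markers and 4 myelin markers matched, none was called.

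The levels of the 100 genes were also compared between the regions. In hatched males 16 were higher in the diencephalon than in the telencephalon (21.2% of all genes tested) and 3 were lower (20.5%; edgeR quasi-likelihood test, adjusted p under 0.01). With each male as a block, 28 were higher (25.9%) and 13 lower (23.8%). The largest differences were those of ENSGACG00000001612 and ENSGACG00000006984. ENSGACG00000001612 averaged 11.6 to 18.7 CPM over the hours in the diencephalon and 0.0795 to 0.171 CPM in the telencephalon, and ENSGACG00000006984 averaged 12.1 to 15.8 CPM and 0.0944 to 0.295 CPM. The log2 fold changes given next are from the fit without the block, which treats both libraries of a male as separate animals. There pomca was higher in the diencephalon by 5.68 (SE 0.98), gh1 by 4.54 (SE 1.02) and cga by 3.85 (SE 1.01). Their edgeR quasi-likelihood adjusted p were 1.55e-05, 0.000409 and 0.00213. ENSGACG00000019509 was higher in the diencephalon by 1.69 (SE 0.26). ENSGACG00000002590 was lower in the diencephalon, by -1.51 (SE 0.16, adjusted p = 5.62e-09), and so were CCDC81, by -0.59 (SE 0.18), and ENSGACG00000017912, by -0.83 (SE 0.21). ENSGACG00000003287 was lower in the diencephalon by -0.29, and this passed only with the block (edgeR adjusted p = 0.0124 without it and 5.54e-05 with it).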

How the data were processed

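Heads were frozen, both regions were dissected, and stranded mRNA libraries were sequenced single-end. Per the labels and methods, the authors aligned reads with TopHat2 2.0.8 to the repeat-masked Ensembl release 75 genome and counted reads per gene with HTSeq 0.6.1. The deposited values are raw counts per gene, 1 file per library. The rows that name no gene were left out of library sizes. Whether counting used strand is not given in the sources used here. Gene names and positions came from annotation columns of the study's supplementary tables of differentially expressed genes, which named 681 of 22456 genes. The 100 genes and all lists were chosen with earlier results of these data known.

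CPM was computed on the sum of the gene counts. For tests, a gene entered a region's fit where 5 or more libraries had 0.5 CPM or more, and was fitted with edgeR 4.0.16 (R 4.3.3; TMM scaling, quasi-likelihood test, 8 groups per region in one fit), and p-values were Benjamini-Hochberg adjusted over all genes, with calls at an adjusted p under 0.01. Region comparisons used the 30 hatched libraries, without and with the male as a replicate block. The numbers in the labels pair both regions of the same animal, and 34 of 39 pairs correlated above 0.1 over the 100 genes. The lowest r of a pair was -0.23. Alternatives were DESeq2 1.42.0, other scalings, filters, thresholds and sizes of the list, and leaving out each male. Figures used matplotlib 3.10.9. Scripts were tested on simulated data. P-values measure the spread between the males sampled, except in region comparisons without the block. Those treat both libraries of a male as separate animals.

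Named genes were the 15 ranked highest, members on the clock list (none matched), in each region up to 5 lower and 3 higher members with the lowest adjusted p, and those beside the limit of the choice. Named members outside this rule, the markers and the genes of region differences were chosen after their values were seen.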

Additional observations from a re-analysis of the deposited data

Results flagged for a closer look

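In groups of 4 or 5 males, the value of the 3 genes ENSGACG00000003287, ENSGACG00000019308 and ENSGACG00000020944 and the median of the 100 genes were checked for a male far from the rest, over 64 groups, where chance alone gives about 1 in 20. Both values found were in control males. Male 66 had 12.9 CPM of ENSGACG00000003287 in the diencephalon at 5pm, where the others had 18.7 to 19.2 CPM. Male 12 had 57.8 CPM of ENSGACG00000020944 in the telencephalon at 1pm, where the others had 5.98 to 11.7 CPM.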

How the results depend on the processing

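The count of the 100 genes lower at 5pm than at 9am in the diencephalon of hatched males, 2, was 1 with scaling by library total only and 0 with only the 3 hatched groups in the fit. The count of all genes called there was likewise 1 and 0. With DESeq2 that count was 3, with 2 of the 100 genes among them. Leaving out 1 hatched male at a time gave 1 to 2 for both counts, with ENSGACG00000019308 lost without males 10, 15, 47 or 65 of 5pm and without males 13, 29, 58 or 64 of 9am (edgeR adjusted p 0.0279 to 0.0924), while ENSGACG00000003287 stayed called. In the telencephalon the count stayed at 0 under every alternative run, and DESeq2 called 4 genes, none of the 100. The log2 fold change of ENSGACG00000003287 ranged over -1.44 to -1.2 in the diencephalon and -0.80 to -0.65 in the telencephalon, and the median of the 100 genes over -0.00 to 0.23 and -0.02 to 0.13. The replicate block gave 28 of the 100 genes higher in the diencephalon and 13 lower, against 16 and 3 without it, and changed no call in the difference between regions. Ranking on TMM-scaled CPM, or keeping the top 50 or 200 genes, moved no count. Of the 100 genes, 62 averaged under 20 CPM, and their median SD between caring males of a group was 0.64 on the log2 scale in the diencephalon, which limits the changes that 5 males a group can show.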
